A study of Mus musculus with 9 samples.

Results

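The transcription factors Pax8, Pax2, Lhx1, Emx2, Wt1, Hoxa9, Hoxa10, Hoxa11 and Meis1, which build the Müllerian duct or give its derivatives their identity, were followed by gene symbol in mouse oviductal epithelial (MOE) cells. These 9 genes each had 1 of the 23332 rows of the expression files. Of the 9, 5 were at FPKM (mapped fragments scaled to transcript length and library size) 1 or more in at least 3 samples and entered the tests, Lhx1 stayed near 0, and the 3 Hoxa genes were listed at 0 in every sample.

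RNA was sequenced from 9 samples of FVB MOE cells, 3 for each of 3 conditions. This line grew from a single clone of FVB mouse oviduct and is described as purely secretory. All cells were first starved of hormone for 48 h in medium without phenol red and with charcoal-stripped serum. They were then kept for 24 h with DMSO alone (0.1%), with 1 nM 17β-estradiol (E2) or with 100 nM 4-hydroxytamoxifen (4OHT). The last is a ligand of the estrogen receptor that acts as an antagonist in breast cells and as an agonist in some others. The labels number the samples of each condition 1 to 3 and do not say what samples of the same number share.

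The Müllerian (paramesonephric) ducts become the oviducts, the uterus and the upper vagina. The LIM factor Lhx1 and the paired-box factor Pax2 are needed to form and extend the duct epithelium, and mice without the homeobox gene Emx2 have no reproductive tract. Pax8 stays on in secretory cells of the adult oviduct and is a diagnostic marker of tumors of Müllerian origin. Along the duct, the posterior Hoxa genes divide the territory in the order in which they lie on the chromosome, with Hoxa9 in the oviduct, Hoxa10 in the uterus and Hoxa11 in the lower uterus and cervix. Meis1 belongs to the TALE homeobox proteins, which bind DNA beside HOX proteins. Wt1 is a zinc-finger factor of the gonadal ridge, kidney and mesothelium.

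On the GRCm38 (mm10) assembly, as annotated by GENCODE, Pax8 lies at chr2:24420560-24475599 on the minus strand and Wt1 at chr2:105126529-105173616 on the plus strand. Pax2 is at chr19:44756045-44837871 and Emx2 at chr19:59458372-59465357, both on the plus strand. Meis1 (chr11:18879817-19018985) and Lhx1 (chr11:84518284-84525535) are on the minus strand. The 3 Hoxa genes sit side by side on the minus strand of chromosome 6, Hoxa9 at chr6:52223100-52231089, Hoxa10 at chr6:52231197-52240854 and Hoxa11 at chr6:52242106-52245810. A noncoding antisense gene, Emx2os (chr19:59425104-59458635, minus strand), overlaps the start of Emx2. Whether strand was used in counting is not stated, so reads from this overlap cannot be assigned to either gene with certainty.

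RefSeq promoter windows of 300 bases, from 250 before to 50 after the start on GRCm38.p6, were found for 8 of the 9 genes at 11 starts, and none for Wt1. The windows of Emx2 (chr19:59458440-59458739, plus strand) and Pax8 (chr2:24475550-24475849, minus strand) are shown because these 2 genes carried the E2 differences described further on. Capitals mark the letters CCAAT or TAATTA, the core letters of a common promoter box and of many homeodomain sites, wherever they occur on either strand.
Emx2: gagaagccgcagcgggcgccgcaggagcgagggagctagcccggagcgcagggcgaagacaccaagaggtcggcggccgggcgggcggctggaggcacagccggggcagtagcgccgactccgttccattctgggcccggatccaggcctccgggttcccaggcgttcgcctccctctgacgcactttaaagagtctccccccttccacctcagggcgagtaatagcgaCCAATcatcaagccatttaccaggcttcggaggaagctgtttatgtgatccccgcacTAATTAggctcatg
Pax8: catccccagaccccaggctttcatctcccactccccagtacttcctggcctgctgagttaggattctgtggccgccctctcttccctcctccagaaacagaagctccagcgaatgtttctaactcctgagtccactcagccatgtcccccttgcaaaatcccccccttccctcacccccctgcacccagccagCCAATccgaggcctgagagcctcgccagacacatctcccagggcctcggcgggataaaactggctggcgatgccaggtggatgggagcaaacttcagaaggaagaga
In both windows CCAAT lay upstream of the RefSeq start, beginning at base -21 of Emx2 and base -57 of Pax8. It was present in 37.4% of the 32851 RefSeq promoter windows. TAATTA began 37 bases into the RefSeq Emx2 transcript and was present in 5.29% of windows. The whole Emx2 window lies within the GENCODE span of the gene, which begins upstream at chr19:59458372. The full estrogen response element GGTCANNNTGACC was in 0.07% of windows and its half-site AGGTCA in 16.3%, both strands searched, and neither string was in any of the 11 windows. The full element holds the letters GGTCA of the half-site. The Emx2 window held 26 CpG dinucleotides, the Pax8 window 7 and the Hoxa9 window 4, against a median of 7.

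Pax8 was the most abundant of the genes. Its FPKM was 142, 107 and 107 in DMSO samples 1 to 3, 150, 128 and 121 in E2 samples 1 to 3, and 141, 114 and 105 in the 4OHT samples. The 3 conditions overlapped, and sample 1 was the highest of each. Pax2 had an FPKM of 72.9, 51.7 and 49.8 with DMSO, 55.0, 50.4 and 43.2 with E2, and 61.4, 46.8 and 49.5 with 4OHT. Its single highest value was thus a DMSO sample and its lowest an E2 sample.

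Emx2 had an FPKM of 46.8, 32.1 and 34.4 with DMSO. The E2 samples stood at 62.7, 46.2 and 44.7 and the 4OHT samples at 43.8, 32.6 and 35.5. All E2 values were above all 4OHT values, while DMSO sample 1 overlapped the lower E2 samples. Wt1 had an FPKM of 45.3, 26.3 and 27.5 with DMSO, 40.6, 28.6 and 28.5 with E2, and 44.2, 28.9 and 27.6 with 4OHT. In each condition 1 sample was near 40 or above and the other 2 lay between 26.3 and 28.9. Meis1 was the lowest of the 5, with an FPKM of 9.70, 5.72 and 7.14 with DMSO, 8.56, 6.29 and 6.49 with E2, and 9.36, 5.24 and 6.22 with 4OHT.

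**Figure D1:**
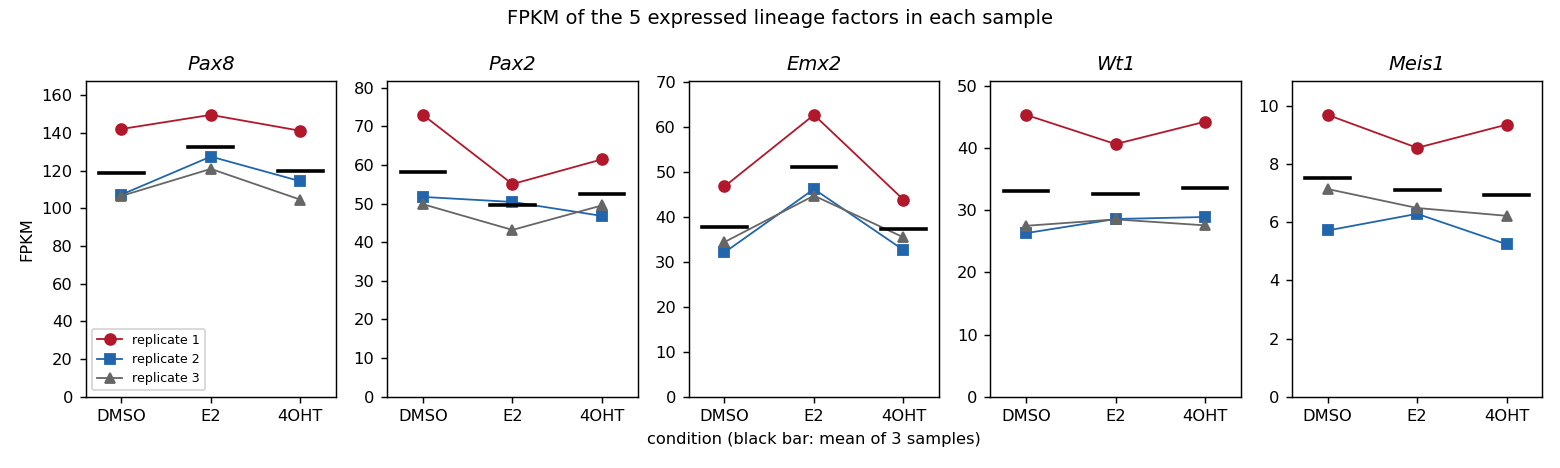
FPKM (y axis, from 0) of the 5 tested genes in each of the 9 samples by condition (x axis), with a line through samples of the same number and a black bar at the mean of 3 samples. The line of sample 1 lies on top in all 5 panels, and Emx2 is highest at its E2 point on all 3 lines, at 62.7, 46.2 and 44.7.

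FPKM is scaled to transcript length, so the levels can be set in order. Over the 9 samples the mean FPKM was 124 for Pax8, 53.4 for Pax2, 42.1 for Emx2, 33.1 for Wt1 and 7.19 for Meis1. Pax8 was above Pax2, and Wt1 above Meis1, in 9 of 9 samples, with no overlap of their ranges in any condition. The neighbours in the middle were not cleanly apart. Pax2 exceeded Emx2 in 7 of 9 samples, the exceptions being E2 samples 1 and 3, and Emx2 exceeded Wt1 in 8 of 9. The ranges of Pax2 and Emx2 overlapped with E2, and those of Emx2 and Wt1 with DMSO and with 4OHT.

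Sample 1 was the highest of its condition for all 5 tested genes in all 3 conditions. Wt1 in sample 1 was 1.68 times the mean of samples 2 and 3 with DMSO, 1.42 times with E2 and 1.57 times with 4OHT. The corresponding ratios were 1.33, 1.20 and 1.29 for Pax8, 1.44, 1.18 and 1.28 for Pax2, 1.41, 1.38 and 1.29 for Emx2, and 1.51, 1.34 and 1.63 for Meis1. The pattern is a common one in these libraries: of the 11339 rows tested, 22.1% had sample 1 highest in all 3 conditions and 19.6% had it lowest. The estrogen receptor Esr1 (ratios of at least 1.85) and the progesterone receptor Pgr (7.62, 2.06 and 3.19) were likewise highest in the samples numbered 1. Because deviations of same-numbered samples ran together, each test is given without and with the sample number as a block, the latter comparing conditions within a number.

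The first comparison asked how E2 altered these genes against vehicle. Emx2 was higher with E2 in 3 of 3 pairs, by 1.34, 1.44 and 1.30 times, and its mean FPKM went from 37.8 ± 7.89 to 51.2 ± 9.98 (SD, n = 3). The log2 fold change on the log2(FPKM + 1) scale was 0.43. In the limma fit without the block its standard error was 0.18, with an unadjusted p of 0.0475 and an adjusted p of 0.450. With the block, Emx2 rose with E2: the standard error was 0.045, the 95% interval 0.32 to 0.54 and the adjusted p 0.0036. It was called in 9 of 9 blocked fits that left out 1 sample, with adjusted p from 0.00746 to 0.0260 in limma, and without all 3 samples numbered 1 its log2 fold change was 0.44 with a blocked adjusted p of 0.0384.

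Pax8 was also higher with E2 in 3 of 3 pairs, by 1.05, 1.19 and 1.13 times, and its mean FPKM was 119 ± 20.3 with DMSO and 133 ± 15.0 with E2. The log2 fold change of 0.17 had a standard error of 0.15 and an adjusted p of 0.715 in limma without the block, and of 0.041 and 0.0432 with it (95% interval 0.07 to 0.27). That blocked call was close to the threshold. It held in 1 of 9 blocked fits that left out 1 sample, the one without E2 sample 1, with adjusted p across the 9 from 0.0398 to 0.154, and without all samples numbered 1 the limma value was 0.0823 at a log2 fold change of 0.21.

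Pax2 was lower with E2 in 3 of 3 pairs (24.3% of all rows were), at 0.754, 0.975 and 0.866 times its DMSO level. Its log2 fold change was -0.21, with an adjusted p of 0.678 without and 0.114 with the block in limma, and a blocked 95% interval of -0.40 to -0.03. Leaving out E2 sample 2 gave a log2 fold change of -0.30 and a blocked adjusted p of 0.0405, and no other single omission brought it past the threshold. Wt1 and Meis1 went up in some pairs and down in others. The log2 fold change was 0.00 for Wt1 (blocked interval -0.13 to 0.14, adjusted p 0.970) and -0.05 for Meis1 (interval -0.22 to 0.11, adjusted p 0.622), both from limma with the block.

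Without the block 0 of the 5 tested genes passed for E2 against DMSO, where 0.512% of all rows did. An unadjusted limma p under 0.05 was reached there by 1 of the 5 genes and by 1237 of the 11339 rows. With the block 2 of 5 passed, against 15.0% of all rows in either direction and 10.4% as higher. In that fit 3 of 5 genes and 3731 of the 11339 rows had an unadjusted limma p under 0.05. Being higher in all 3 pairs, as Emx2 and Pax8 were, was seen in 28.1% of rows, and groups that did not overlap, which none of the 5 genes had, in 15.2%. As a check of the hormone, Pgr, a classical estrogen target, had a mean FPKM of 4.03 ± 4.80 with DMSO and 25.1 ± 11.6 with E2 and was higher in 3 of 3 pairs. Its log2 fold change was 2.70 (limma adjusted p 0.212 without and 0.0025 with the block). Esr1 had a log2 fold change of 0.45, with a blocked limma adjusted p of 0.0042 and 0.690 without the block.

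**Figure D2:**
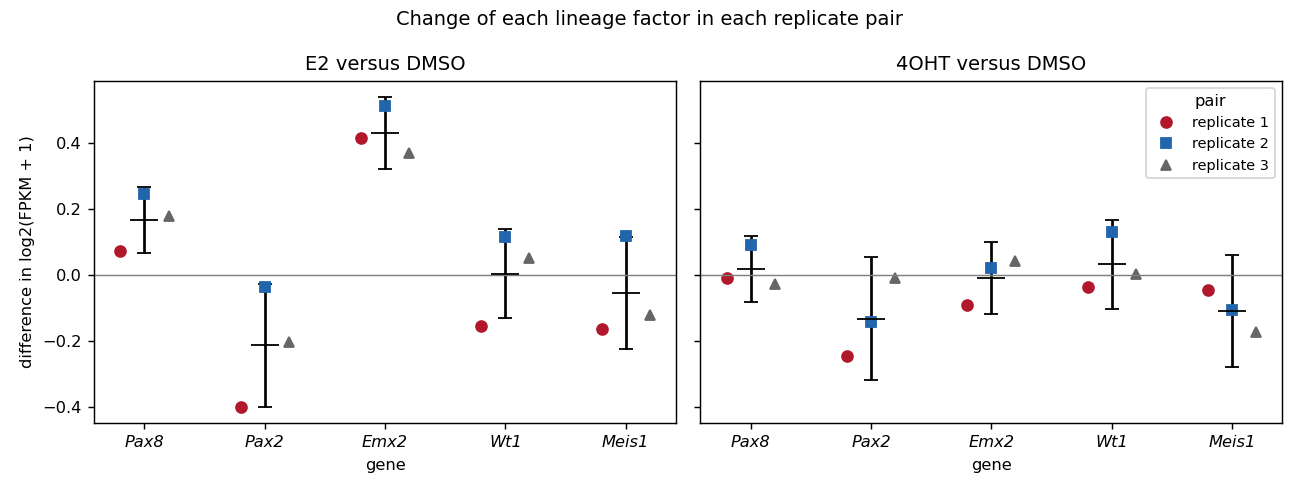
Difference in log2(FPKM + 1) (y axis) of each tested gene (x axis) within each pair of same-numbered samples, for E2 against DMSO on the left and 4OHT against DMSO on the right, with the mean as a bar and its 95% interval from the blocked limma fit. The Emx2 interval for E2, 0.32 to 0.54, lies clear of 0, while for 4OHT it spans 0, from -0.12 to 0.10.

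4OHT against DMSO addressed whether the receptor ligand acted on these genes in oviductal cells. None of the 5 tested genes passed in limma with or without the block, nor did any of the 11339 rows (0% in both fits), while 313 rows had an unadjusted p under 0.05 without the block and 1480 with it, none of them among the 5 genes. The blocked intervals of the log2 fold change were -0.12 to 0.10 for Emx2, -0.08 to 0.12 for Pax8, -0.32 to 0.06 for Pax2, -0.10 to 0.17 for Wt1 and -0.28 to 0.06 for Meis1. Changes as large as the E2 estimate for Emx2 lay outside its 4OHT interval. Meis1 and Pax2 were below DMSO in 3 of 3 pairs, as were 15.6% of rows, with log2 fold changes of -0.11 and -0.13. Pgr, the check of the hormone, was at 1.01, 2.71 and 2.07 times its DMSO level in the 3 pairs. Its log2 fold change with 4OHT was 0.55 (blocked interval -0.04 to 1.15), and it did not pass in either fit.

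E2 against 4OHT set both ligands side by side, at different doses of 1 nM and 100 nM. This comparison uses the same E2 samples as the first one, so the values are not independent of it. Emx2 was 1.43, 1.42 and 1.26 times higher with E2 in the 3 pairs, and the groups did not overlap, as was the case for 18.3% of all rows. Its log2 fold change was 0.44, with a limma adjusted p of 0.428 without the block and 0.0047 with it (95% interval 0.33 to 0.55). It passed in 9 of 9 blocked fits that left out 1 sample (adjusted p 0.0094 to 0.0316, limma), but not without all samples numbered 1 (adjusted p 0.0603, log2 fold change 0.41). Pax8 had a log2 fold change of 0.15 (interval 0.05 to 0.25), which missed the threshold with the block at a limma adjusted p of 0.0558 and passed without E2 sample 1 (0.0464). For Pax2, Wt1 and Meis1 the log2 fold changes were -0.08, -0.03 and 0.05. In all, 0 of 5 passed without the block (0.159% of rows) and 1 of 5, as higher, with it (16.2% of rows, 8.63% as higher). Both Emx2 and Pax8 were higher in 3 of 3 pairs, as were 24.3% of rows.

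Emx2os, the antisense neighbour of Emx2, had an FPKM between 1.39 and 2.47 in the 9 samples. Its log2 fold change for E2 against DMSO was 0.09 (blocked interval -0.16 to 0.35, limma adjusted p 0.561), and it was higher in 2 of 3 pairs. Its level was thus far below that of Emx2 in every sample, with both given per length.

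The posterior Hoxa genes had no measurable level in these files. Hoxa9, Hoxa10 and Hoxa11 were each listed at 0 in 9 of 9 samples, as was the antisense RNA Hoxa11as. Lhx1 was listed at 0 in 6 samples and had an FPKM of 0.0108 and 0.0183 in DMSO samples 1 and 2 and 0.0096 in E2 sample 3. The 4 genes gave no test and no fold. A listed 0 in these files can be a failed estimate, since the housekeeping gene Hprt was listed at 0 in E2 sample 3 and between 233 and 318 in the other 8 samples, and 245 of the tested rows held at least 1 such value. None of the 5 tested genes had a 0. The files hold no read counts, so no detection limit in reads can be given.

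Other HOX genes are given for comparison, with the same limit on listed zeros. Among the Hoxa genes, the mean FPKM was 1.39 for Hoxa2, 3.26 for Hoxa4 and 1.08 for Hoxa5. Hoxa3 had 3 rows, with means of 8.88, 1.20 and 6.41 that summed to 16.5. Hoxa6, Hoxa7 and Hoxa13 were at 0 in all 9 samples with the 3 members, so 6 of the 10 Hoxa genes followed were. In the Hoxb cluster, Hoxb2 had a mean FPKM of 20.4, Hoxb4 of 5.15, Hoxb7 of 26.3, Hoxb8 of 21.2 and Hoxb9, the paralog of Hoxa9 and the most abundant of these HOX genes, of 31.8. Hoxb3, Hoxb5 and Hoxb6 shared a joined row at 28.3, and Hoxb1 and Hoxb13 were at 0.0073 and 0.0025. No Hoxc or Hoxd gene exceeded a mean FPKM of 0.006, and 6 of 9 Hoxc and 7 of 9 Hoxd genes were at 0 in all samples, anterior ones such as Hoxc4, Hoxd1 and Hoxd3 included. Genes of paralog groups 10 to 13 were at or near 0 in all 4 clusters.

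**Figure D3:**
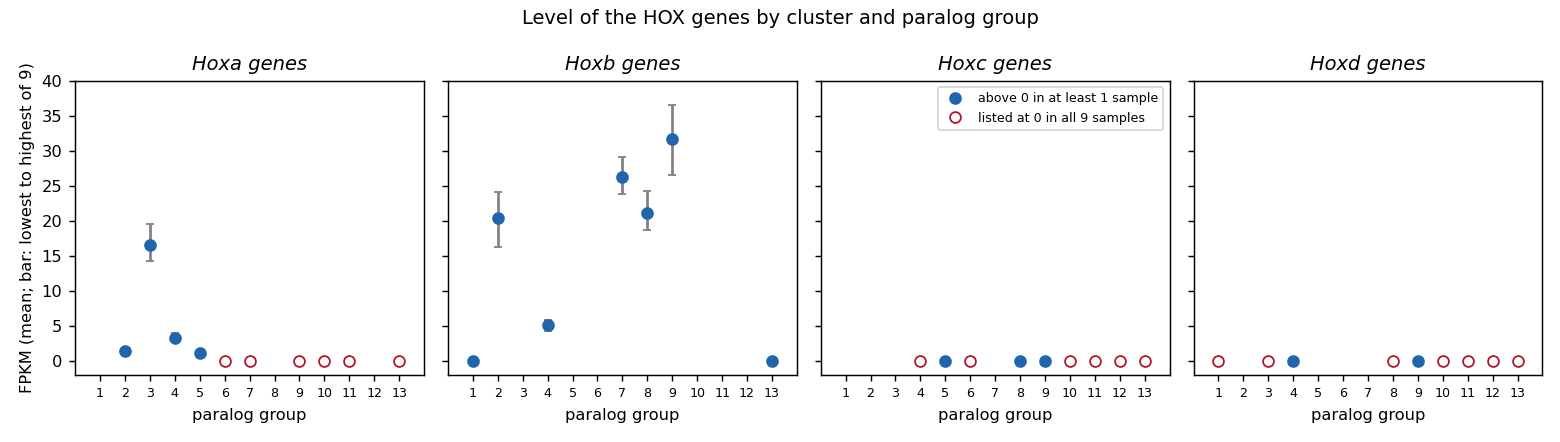
Mean FPKM over 9 samples (y axis, with a bar from the lowest to the highest) of the HOX genes followed by paralog group (x axis) in the 4 clusters, with open circles for genes listed at 0 in all samples, and without the joined row of Hoxb3, Hoxb5 and Hoxb6. Filled points at a mean FPKM of 1 or more lie in groups 2 to 5 of Hoxa and in groups 2 to 9 of Hoxb, up to 31.8 for Hoxb9, while Hoxa9, Hoxa10 and Hoxa11 are open circles. The Hoxa3 point is the sum of 3 rows.

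Another 35 HOX genes gave 12 tested rows. With E2 against DMSO and the block, 0 of the 12 rose and 3 fell, beside 15.0% of all rows called in either direction and 10.4% as higher. The 3 that fell were Hoxb8 (log2 fold change -0.19, adjusted p 0.0454), Hoxb2 (-0.13, 0.0404) and Hoxa4 (-0.24, 0.0320), all in limma. Hoxb9, Hoxb7 and the joined Hoxb3, Hoxb5 and Hoxb6 row, the 3 most abundant, had log2 fold changes of -0.05, -0.03 and -0.10 and did not pass. The median log2 fold change of the 12 rows was -0.11, beside -0.00 over all rows tested. Hoxb8 and Hoxb2 were lower against 4OHT too, by -0.24 and -0.31 on the log2 scale (blocked limma adjusted p 0.0276 and 0.0044). Of all rows, 16.2% passed in that comparison. None of the 12 rows passed without the block or for 4OHT against DMSO.

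TALE proteins, the DNA-binding partners of HOX factors, were represented by 9 further genes, 8 of them tested. With E2 and the block 1 of the 8 rose and 3 fell, beside the same 15.0% of all rows, 10.4% as higher. Pknox2, a relative of the Meis genes, had a mean FPKM of 1.58 ± 1.28 with DMSO and 4.07 ± 1.45 with E2 (log2 fold change 1.05, limma adjusted p 0.0047). The repressors Tgif1 (-0.24, 0.0160) and Tgif2 (-0.21, 0.0299) fell, as did Pknox1 (-0.27, 0.0091). Meis2, with a mean FPKM of 21.9 the most abundant Meis gene, had a log2 fold change of 0.08 and did not pass, like Meis1 itself. The median over the 8 rows was -0.03. Against 4OHT with the block 2 rose (Pknox2 at 1.02 and Meis3 at 0.15) and 2 fell (Pknox1 and Tgif1). Of all rows, 16.2% passed there, 8.63% as higher. Without the block none passed in either comparison, nor did any for 4OHT against DMSO with or without it.

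Among 36 other genes of Müllerian duct development, 21 rows were tested, and 3 rose and 0 fell with E2 in the blocked fit, in which 15.0% of all rows passed and 10.4% as higher. These were the homeobox gene Msx2, with a mean FPKM of 12.1 ± 3.05 with DMSO and 19.1 ± 4.71 with E2 (log2 fold change 0.62, limma adjusted p 0.0026), the retinoic acid receptor Rara (0.24, 0.0106) and the zinc-finger gene Osr1 (0.27, 0.0216). The most abundant, the WNT effector Ctnnb1 (mean FPKM 229), the ligand Wnt4 (50.2) and the scaffold gene Dlg1 (35.9), had log2 fold changes of 0.13, -0.09 and 0.00 and did not pass. The median of the 21 rows was 0.04. Against 4OHT with the block 3 rose (Msx2, Rara and Lrp6, the last at 0.16) and Wnt4 fell (-0.22, blocked limma adjusted p 0.0282). Of all rows, 16.2% passed there, 8.63% as higher. Again none of the 21 passed without the block, or for 4OHT against DMSO in either fit. Of the LIM and Emx relatives on the list, Lhx9 had a mean FPKM of 0.531 and Lhx2 of 0.0036, and Emx1 was at 0 in all 9 samples. None of 7 other PAX genes was tested, the highest being Pax9, Pax3 and Pax6 at 0.103, 0.0295 and 0.0098.

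**Figure D4:**
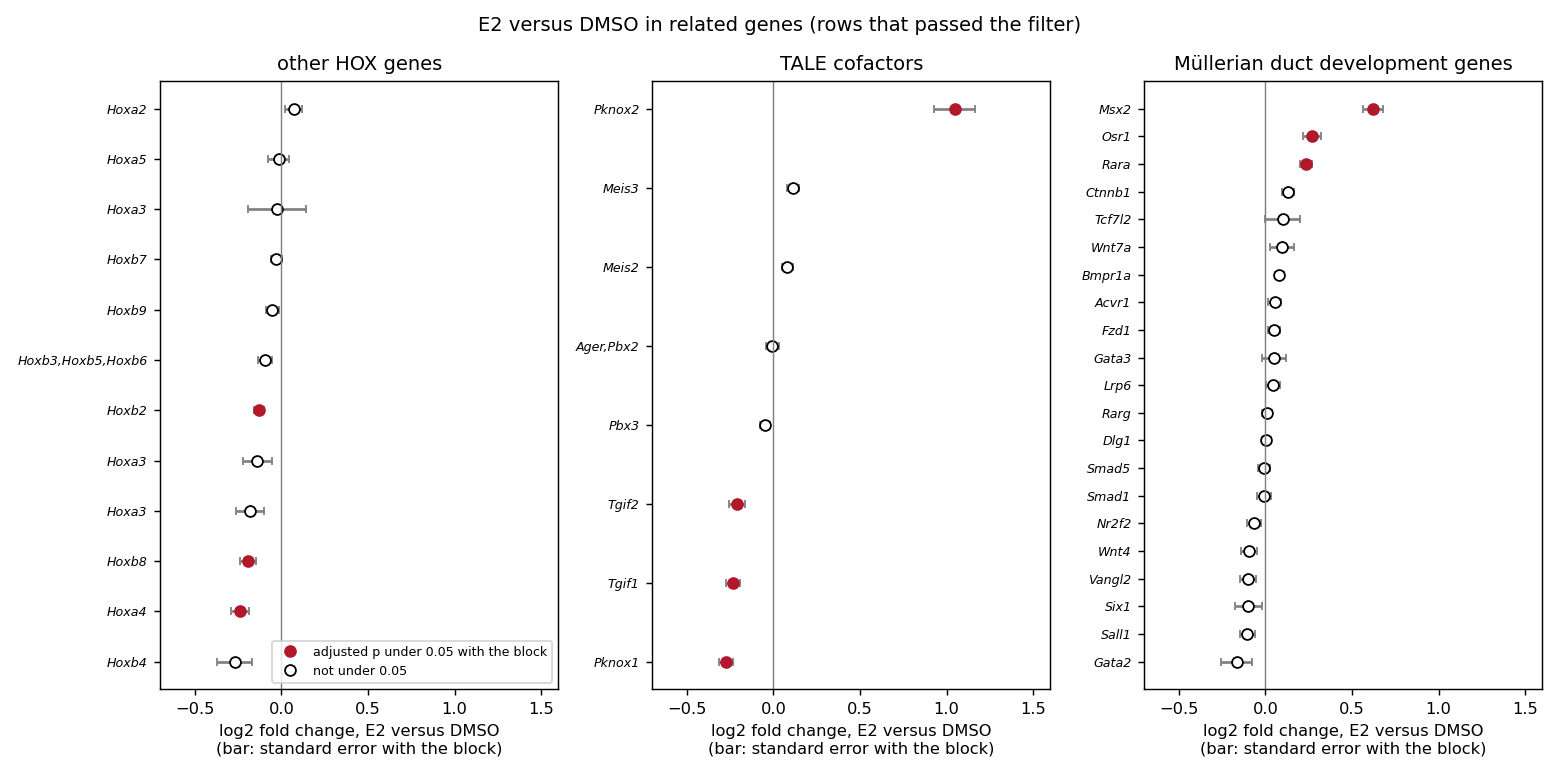
Log2 fold change of E2 against DMSO (x axis, bar for the standard error with the block) for the tested rows of the other HOX genes, the TALE cofactors and the duct development genes (y axis, ordered by value), filled where the blocked limma adjusted p was under 0.05. Pknox2 (1.05) and Msx2 (0.62) lie farthest to the right, and the 3 filled HOX points lie left of 0.

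The last list held chromatin regulators and other factors that act on HOX clusters. Of 19 genes, 16 rows were tested. Wdr5, Bmi1 and Ezh2, of the Trithorax and Polycomb groups, were the most abundant (mean FPKM 39.0, 35.6 and 27.8) and had log2 fold changes with E2 of -0.11, 0.01 and -0.11 that did not pass. The histone methyltransferase gene Dot1l (-0.15, adjusted p 0.0377) and the Polycomb gene Cbx7 (-0.24, 0.0122) fell in the blocked limma fit. In that fit 15.0% of all rows passed in either direction. The insulator gene Ctcf was called higher (adjusted p 0.0366), which rests on listed zeros, since it was at 0 in 3 DMSO samples and 4OHT sample 1 and between 18.6 and 21.4 in the other 5. The median of the 16 rows was -0.08. Against 4OHT the Polycomb methyltransferase gene Ezh1 rose (0.17) and Cbx7 fell (-0.19) in the blocked fit, in which 16.2% of all rows passed. None of the 16 rows passed without the block or for 4OHT against DMSO.

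The secretory label was compared with its markers. Of 14 secretory and epithelial markers, 9 rows were tested, and their summed FPKM was 1433 to 1578 with DMSO, 2382 to 2597 with E2 and 1501 to 1692 with 4OHT. Most of that sum was keratin RNA, with Krt18, Krt7 and Krt8 at a mean FPKM of 584, 483 and 466. Krt7 alone had a mean of 310 with DMSO and 816 with E2. Pax8 was high too, whereas Sox17 (mean FPKM 0.0039), Epcam (0.038) and Cdh1 (0.326) were at or near 0. The oviductal glycoprotein gene Ovgp1 was at 1.86. In the blocked fit 7 of 9 rose with E2, Pax8 among them (10.4% of all rows were called higher), and 1, Krt7, did so without the block (0.512% of all rows called). Ovgp1 and Cldn4, also tested, were lower with E2 in 3 of 3 pairs, as were 24.3% of all rows. Their log2 fold changes were -0.29 and -0.19, and neither passed in either fit. Of 17 ciliated cell markers 6 rows were tested. Foxj1, at a mean FPKM of 13.7, was lower with E2 (log2 fold change -0.40, limma adjusted p 0.0176 with and 0.304 without the block). Rsph1 was higher in 3 of 3 pairs but did not pass (0.19, blocked limma adjusted p 0.0533). The list summed to 428 to 552 with DMSO, 415 to 445 with E2 and 458 to 583 with 4OHT. Most of that sum was the tubulin gene Tubb4b (mean FPKM 454). Dnahc5, Hydin, Dnaic1 and Tekt1 had means of 0.0610, 0.0028, 0.0129 and 0.0790. Wt1 is also a mesothelial and ovarian surface marker. Of the 10 genes found of that list 6 were tested. In the blocked fit 2 rose with E2 and 3 fell, beside 15.0% of all rows called in either direction. Krt19, also on the secretory list, and Bnc1 rose, while Msln (log2 fold change -0.26), Upk3b (-0.58) and Podxl (-0.29) fell. Without the block 1 passed, Bnc1, with a mean FPKM of 1.53 ± 0.451 with DMSO and 5.99 ± 1.17 with E2 (log2 fold change 1.47, limma adjusted p 0.0213). Msln had a mean FPKM of 153, and Gata6, Gata4, Lrrn4 and Upk1b were at or near 0. The summed level of the list was 282 to 390 with DMSO, 318 to 442 with E2 and 311 to 404 with 4OHT. The part of these markers in the E2 values of Emx2, Pax8 and Wt1 was not tested, and in bulk RNA a smaller share of cells that express a gene and less RNA per cell cannot be told apart.

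Markers of other lineages ranged from high to near 0, and whether other cell types were present was not tested. In the blocked fit 15.0% of all rows passed for E2 against DMSO. Among stromal markers Vim had a mean FPKM of 1776, Dcn of 6.12, Postn of 4.87 and Col1a1 of 3.52, while Pdgfra, Pdgfrb, Col1a2, Col3a1, Lum, Thy1 and Tcf21 were at or near 0, and 4 of 11 rows were tested (Dcn rose with E2 in the blocked fit and not without the block, limma adjusted p 0.340). The smooth muscle genes Acta2, Smtn and Cnn1 were at 1304, 232 and 22.0, but Myh11, Des and Actg2 had means of 0.270, 0.0254 and 0.290, and of 3 rows tested Acta2 rose and Cnn1 fell in the blocked fit, with limma adjusted p of 0.531 and 0.761 without the block. For leukocytes, Ptprc was at 0.0085 and Cd3e at 0, but the macrophage genes Csf1r and Cd68 had means of 4.31 and 3.69, and neither of these 2 tested rows passed in either fit. For endothelium, Pecam1 was at 0.046 and Cdh5 at 0.074, with 1 of 6 rows tested, Kdr, which was higher in the blocked fit (limma adjusted p 0.0051) and did not pass without the block (0.114). The stromal list summed to 1651 to 1912 with DMSO, 1696 to 1943 with E2 and 1668 to 2059 with 4OHT, and the smooth muscle list to 1177 to 1700, 1524 to 1980 and 1484 to 1778. Most of the stromal sum was Vim and most of the smooth muscle sum Acta2. No marker of any list passed for 4OHT against DMSO in either fit. The libraries had similar totals, with summed FPKM from 522517 to 588640 and 11037 to 11175 rows at FPKM 1 or more.

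Likeness across the 9 samples, as Pearson's r of log2(FPKM + 1) and without a test, picked out genes that shared the high level in the samples numbered 1. Those nearest to Pax8 were Rai2 (r = 0.994) and Napsa (0.993). Napsa, an aspartic protease gene, had an FPKM of 8.43, 2.00 and 1.41 with DMSO and 9.14, 4.48 and 3.20 with E2. Emx2 was most like Gcap14 (0.993) and Nhs (0.991), and the FPKM of Nhs was 1.89, 0.958 and 1.15 with DMSO and 3.51, 2.21 and 1.91 with E2. Closest to Wt1 were Notum (0.993), which encodes a secreted WNT inhibitor, and C1qtnf1 (0.989). Meis1 was nearest to Clec18a and Cnksr3 (both 0.986), and Pax2 to E130308A19Rik (0.976) and the orphan nuclear receptor gene Nr2f2 (0.963). Among the 5 genes themselves r ran from 0.362 for Pax2 and Emx2 to 0.915 for Wt1 and Meis1. The points share their libraries and sample numbers.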

How the data were processed

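Poly(A) RNA of 9 FVB MOE samples had been made into directional single-end libraries. Per the labels and the methods, the authors trimmed and filtered reads, aligned them to mm10 with TopHat2 2.0.8b and estimated expression with Cuffdiff 2.1.1, and they deposited FPKM values per gene and sample. Those files hold no read counts, so depth and counting error per value cannot be taken from them, and whether strand was used or libraries were scaled further is not given in the sources used here. Rows were matched by symbol, 362 symbols occurred in several rows and 293 rows joined several names.

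The 11339 of 23332 rows that reached an FPKM of 1 in 3 or more samples were tested as log2(FPKM + 1), a scale that understates changes of low genes, with limma 3.58.1 (R 4.3.3, variance trend, all 9 samples, 1 coefficient per condition), p-values being adjusted by Benjamini-Hochberg over all tested rows and called under 0.05. A count test had been planned had the files held counts. A second fit added the sample number as a block. Over the 11094 tested rows with no exact 0, which include the 5 tested members, deviations from condition means of same-numbered samples correlated at 0.523 to 0.828 in 9 of 9 pairs of conditions and numbers, and over all tested rows at 0.0527 to 0.293, over 0.1 in 5 of 9. The pairing comes from this check and the numbers, not from a stated culture or day. Nothing says that samples came from separate cultures, so p-values measure the spread between these samples. The fits were also run on simulated data, with larger changes than those estimated for the members. That run therefore does not assess calls on changes as small as theirs.

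The members and lists were chosen with earlier results of these data known, and some genes of the lists are not reported here. All members were named, with Pgr and Esr1 as checks. Of each related list, at most 5 genes called in either fit in any comparison, by largest log2 fold change with the block, and the 3 highest in mean FPKM were named, and for each tested member the 2 genes most like it. Meis3, Lrp6, Lhx2, Lhx9, Emx1, the HOX genes of the cluster account and individual markers were named after their values were seen. Sequences came from RefSeq (GRCm38.p6), and coordinates from GENCODE. Alternatives were a pseudocount of 0.1, no filter, upper-quartile scaling, only the 6 samples compared, exact zeros as missing, a threshold of 0.01 and each sample left out, and, added after seeing the data, the block with each sample or all samples numbered 1 left out.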

Additional observations from a re-analysis of the deposited data

How the results depend on the processing

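For E2 against DMSO the log2 fold changes of Emx2 and Pax8 stayed above 0 and that of Pax2 below 0 in all 28 alternatives each, and which tested members passed depended on the replicate block. Part of the 28 cannot move these estimates, among them no filter, the block with all samples, zeros as missing and omission of a 4OHT sample. With the replicate block 2 members passed for E2 against DMSO and 1 for E2 against 4OHT. The paired counts were 2 and 1 with a pseudocount of 0.1, 2 and 2 with exact zeros as missing, and 1 to 2 in both comparisons when 1 sample was left out. Leaving out all samples numbered 1 gave 1 and 0 with the block. Without the block none of the 5 members passed in any setting, so the range over single omissions with or without it was 0 to 2, and for 4OHT against DMSO none passed in any setting. Over all rows, the limma calls for E2 against DMSO were 58, and 1702 with the replicate block, 2110 with the block and zeros as missing and 1711 with the block and a pseudocount of 0.1. They were 6 at a threshold of 0.01, 32 without the filter, 8 with only the 6 samples compared, and 108 (491 with the block) without samples numbered 1. Single omissions gave 8 to 1336, and with the block 537 (without DMSO replicate 3) to 1336. For E2 against 4OHT they were 18, and in the same order 1840, 2455, 1806, 0, 9, 7, 48 and 215, with 10 at a pseudocount of 0.1 and 37 with zeros as missing, and single omissions gave 0 to 1509, or with the block 280 (without 4OHT replicate 1) to 1509. For 4OHT against DMSO the count was 0, and 7 with the block and zeros as missing, 3 with only the 6 samples, 3 (3 with the block) without samples numbered 1 and 0 to 6 in single omissions. The cause of these shifts was not tested. Fold changes near 0 changed sign. Under upper-quartile scaling Wt1 was at -0.0205 for E2 against DMSO and Pax8 at -0.0145 for 4OHT against DMSO, and without samples numbered 1 Emx2 was at 0.0328 for 4OHT against DMSO and Wt1 at 0.0160 for E2 against 4OHT. Single omissions gave log2 ranges for 4OHT against DMSO of -0.13 to 0.15 for Emx2, -0.32 to 0.069 for Meis1, -0.25 to 0.040 for Pax2, -0.10 to 0.15 for Pax8 and -0.18 to 0.28 for Wt1. For E2 against 4OHT they were -0.10 to 0.26 for Meis1, -0.17 to 0.034 for Pax2 and -0.19 to 0.18 for Wt1, and for E2 against DMSO -0.21 to 0.12 for Meis1 and -0.16 to 0.25 for Wt1. With 3 samples a condition and no read counts, small differences and low genes are poorly resolved.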
